A study of Mus musculus with 6 samples.

Results

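Endothelial cells, which line the blood vessels, and pericytes and smooth muscle cells, the mural cells that wrap them, were followed through 34 genes in RNA-seq of the mouse retina. The genes were chosen by name as markers of these cells, and all 34 were found among the 21995 gene rows of the deposited table. They fell into 16 genes of endothelial identity, 5 of tip cells and sprouting, 7 of the blood-retina barrier and 6 of mural cells. Whole retinas were collected at postnatal day 6 (P6) from 3 mice labelled Lhx4-null and 3 mice labelled control, on a mixed background of C57BL/6J and 129S6, with 1 library from the retinas of each mouse. In the study's null mice 1 copy of Lhx4 is replaced by a tdTomato reporter, and the other is flanked by loxP sites and deleted by Six3-Cre, which acts in the neural retina. For other experiments it used wild-type mice or mice with loxP or tdTomato alleles and no Cre as controls, and the genotype of the RNA-seq controls is not given beyond the word control. The comparison asked which genes differ when Lhx4, a transcription factor gene of bipolar cells, is inactivated. The retina was not sorted, so vessel cells contribute a small part of each library, and fewer vessel cells cannot be told apart from less RNA per vessel cell.

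In the first weeks after birth the mouse retina gains its vessels by sprouting. Endothelial cells at the front of a sprout, the tip cells, follow VEGF released by hypoxic neurons and glia, while the cells behind them form the tube, seal it with tight junctions and suppress leakage. Tip cells release PDGF-B, which draws pericytes onto the new vessel through the receptor PDGFR-beta, and pericytes supply angiopoietin-1, the agonist of the endothelial receptor Tie2. The transcription factors Ets1 and Erg of the ETS family and Sox17 and Sox18 of the SOXF group keep endothelial genes on.

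The values are FPKM, fragment counts scaled for gene length and for library size, so that levels of different genes can be compared per length. The study gives a range of reads per library but not the depth of each library, and the reads behind a value could not be recovered from FPKM. Lhx4 itself was at 28.2, 28.3 and 25.8 FPKM in null-labelled retinas 1 to 3, against 17.98, 18.1 and 19.3 FPKM in controls 1 to 3. It was thus higher, and not lower, in all 3 null-labelled retinas. The part of the gene removed by Cre is not given in the sources used here. A value over the whole gene therefore checks the label in neither direction. Of 4 bipolar cell genes that the study picked out from these libraries, 3 lay below all controls in all null-labelled retinas. Bhlhe23 was at 0.626, 0.584 and 0.196 FPKM in null-labelled retinas, against 11.5, 7.45 and 0.986 FPKM in controls, and Fezf2 was at 2.77, 2.75 and 2.31 FPKM in null-labelled retinas, against 11.1, 7.47 and 5.58 FPKM in controls. Grik1 was the third, and Grm6 overlapped between the groups. In sections of null retinas at P6, the study also reported less Bhlhe23, Grik1 and Grm6 by in situ hybridization and less FEZF2 by immunolabelling. Those sections do not check the labels of these libraries. The libraries are called null-labelled, after the label alone. Principal components of the tested rows set both libraries numbered 3 apart from the other 4 on the first axis (50.9% of the variance) and the genotypes apart on the second (18.8%). Each value is therefore given with the number of its library.

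Stretches of the promoters of 5 members from the endothelial identity, barrier and mural groups are shown. Each runs from 250 bases before to 50 bases after the RefSeq start site on GRCm38.p6, and was chosen with the expression values in view. Capitals mark the ETS core, searched as AGGAAG or CTTCCT so that both strands are covered. Emcn encodes the endothelial sialomucin endomucin and its stretch lies at chr3:137340828-137341127 on the plus strand. Tie1, an orphan receptor related to Tie2, is shown from chr4:118489800-118490099 on the minus strand. Cd34, a sialomucin of endothelial and blood progenitor cells, is shown from chr1:194938571-194938870 on the plus strand. Mfsd2a, a lipid transporter of barrier endothelium, is shown from chr4:122961139-122961438 on the minus strand. Rgs5, a regulator of G protein signalling that marks pericytes, is shown from chr1:169655251-169655550 on the plus strand.
Emcn: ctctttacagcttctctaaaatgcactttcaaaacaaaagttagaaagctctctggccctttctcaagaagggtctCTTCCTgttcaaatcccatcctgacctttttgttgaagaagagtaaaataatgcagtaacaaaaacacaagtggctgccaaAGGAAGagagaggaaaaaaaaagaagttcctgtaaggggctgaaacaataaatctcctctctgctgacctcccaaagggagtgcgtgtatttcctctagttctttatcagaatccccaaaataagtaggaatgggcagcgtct
Tie1: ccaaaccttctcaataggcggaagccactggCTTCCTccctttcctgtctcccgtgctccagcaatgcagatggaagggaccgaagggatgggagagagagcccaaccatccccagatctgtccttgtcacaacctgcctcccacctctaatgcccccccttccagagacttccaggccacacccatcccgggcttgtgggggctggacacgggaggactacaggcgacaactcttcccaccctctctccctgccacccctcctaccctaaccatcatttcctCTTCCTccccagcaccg
Cd34: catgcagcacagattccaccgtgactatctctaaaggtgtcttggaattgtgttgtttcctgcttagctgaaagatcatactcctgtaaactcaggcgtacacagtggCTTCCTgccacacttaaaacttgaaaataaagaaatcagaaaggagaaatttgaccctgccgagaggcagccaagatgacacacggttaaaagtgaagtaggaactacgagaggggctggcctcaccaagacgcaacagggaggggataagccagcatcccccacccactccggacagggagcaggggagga
Mfsd2a: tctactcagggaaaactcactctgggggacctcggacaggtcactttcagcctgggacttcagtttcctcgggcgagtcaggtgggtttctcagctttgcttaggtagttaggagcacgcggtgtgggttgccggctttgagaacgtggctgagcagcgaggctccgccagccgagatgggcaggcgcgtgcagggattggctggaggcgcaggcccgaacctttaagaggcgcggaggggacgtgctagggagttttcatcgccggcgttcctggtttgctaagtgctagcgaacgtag
Rgs5: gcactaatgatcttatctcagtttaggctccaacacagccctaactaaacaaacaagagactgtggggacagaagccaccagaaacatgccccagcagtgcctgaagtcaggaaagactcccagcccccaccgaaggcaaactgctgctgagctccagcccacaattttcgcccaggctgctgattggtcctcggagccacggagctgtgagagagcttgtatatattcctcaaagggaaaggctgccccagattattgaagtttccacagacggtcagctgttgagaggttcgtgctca

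The Emcn stretch held 2 ETS cores, starting at -174 and -93 from the start site. The Tie1 stretch also held 2 and the Cd34 stretch 1, whereas the stretches of Mfsd2a and Rgs5 held none. RefSeq promoters were given for 20 of the 34 members. At least 1 ETS core was found in 11 of these 20 (55%), against 38.4% of all 27025 genes of that promoter table. By group the core was found in 7 of 8 endothelial identity genes, 1 of 2 tip cell genes, 3 of 6 barrier genes and 0 of 4 mural genes. The SOX core, searched as ACAAT or ATTGT, was found in 8 of 20 members (40%), against 34.4% of all genes. Genes with several start sites were counted once if any of their stretches held the core. These matches describe letters in a window of 300 bases and are not binding sites.

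**Figure D1:**
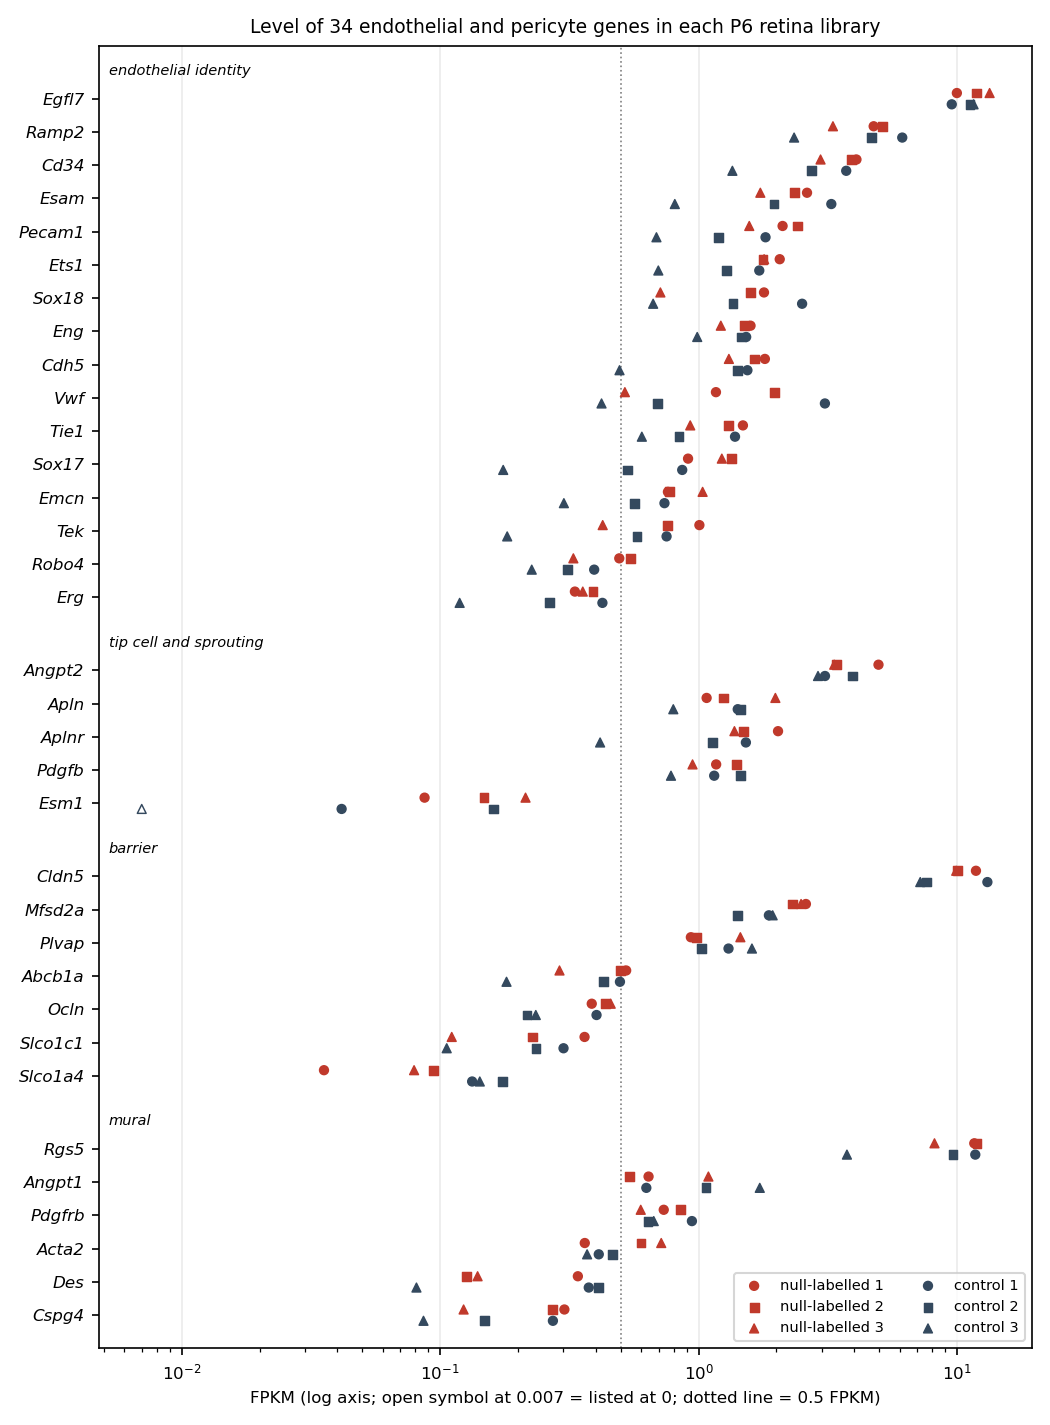
FPKM of each of the 34 genes (log axis) in the 3 null-labelled and 3 control retinas, with 1 symbol per library and the shape giving the library number. Control 3, the dark triangle, is the lowest of the 6 libraries for 26 of the 34 genes.

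Vessel genes were present at low to moderate levels in every retina. Egfl7, Cldn5 and Rgs5 had the highest means over the 6 libraries, at 11.3, 9.97 and 9.498 FPKM. Esm1, Slco1a4 and Cspg4 had the lowest, at 0.109, 0.110 and 0.201 FPKM. The mean was at least 0.5 FPKM for 24 members, which entered the test, and below it for 10 members, whose values are given with no test. The 24 passed on the mean over all libraries and not over 1 group.

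No member differed between null-labelled and control retinas at a Benjamini-Hochberg adjusted p under 0.05 in limma's test over all 13175 rows, where 2 rows passed (0.0152%). The smallest adjusted p of a member was 0.693, for Mfsd2a. With the replicate number as a block, 12 rows passed (0.0911%), none of them a member, and the smallest adjusted p of a member was 0.321, for Pecam1. At an unadjusted p under 0.05, 2 of the 24 members were higher in null-labelled retinas, Sox17 and Mfsd2a, against 4.09% of all rows. In the blocked fit 7 of the 24 were higher at that threshold, against 6.96% of all rows, and in neither fit was a member lower. The block takes the replicate numbers of the labels as pairs, and the values at numbers 1 and 2 cannot show such pairing.

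The members lay mostly on 1 side. As markers of the same vessels they are not independent, so counts of members, here and below, are description and carry no test. The fitted log2 difference, null-labelled minus control, was above 0 for 20 of the 24 tested members, against 50.9% of all tested rows. Its median was 0.23 over the 24 members and 0.0033 over all rows. By group the median was 0.30 for the 14 tested endothelial identity genes, 0.18 for 4 tip cell genes, 0.23 for 3 barrier genes and -0.024 for 3 mural genes. All 3 null-labelled libraries lay above all 3 controls for 4 of the 24 tested members (Emcn, Ets1, Sox17 and Mfsd2a), against 7.88% of all rows. All 3 lay below for none of them, against 5.53% of all rows. The direction depended in large part on control 3, while leaving out control 1 moved the median the other way, to 0.49. Without control 3 the difference was above 0 for 13 of the 24 members, with a median of 0.062. For all rows that fit gave 6506 of 13175 above 0 and a median of -0.0025. It still held null-labelled 3, which was low for most members. Without both libraries numbered 3, 16 of the 24 members were above 0, with a median of 0.13. All rows then had 6022 of 13175 above 0 and a median of -0.018.

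**Figure D2:**
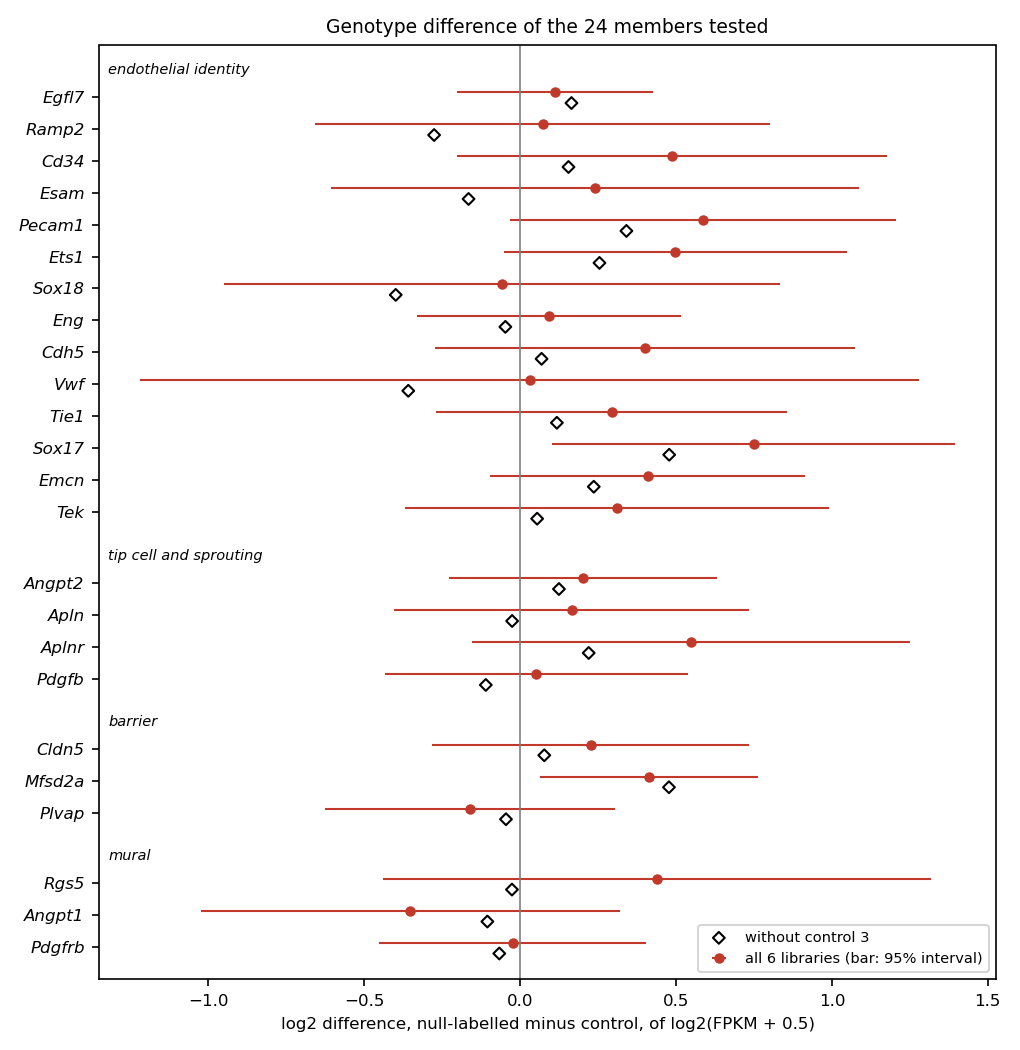
Fitted difference between null-labelled and control retinas for the 24 tested members on the log2(FPKM + 0.5) scale, with the 95% interval from all 6 libraries (filled) and the estimate without control 3 (open). The open symbols lie closer to 0 than the filled ones for most endothelial genes, and Mfsd2a and Sox17 stay above 0.4 in both. The fit without control 3 still held null-labelled 3.

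Among the genes of endothelial junctions and surface, Pecam1, the adhesion molecule CD31, was at 2.11, 2.42 and 1.57 FPKM in null-labelled retinas 1 to 3, against 1.82, 1.196 and 0.687 FPKM in controls 1 to 3. The groups overlapped, with control 1 above null-labelled 3 and control 3 the lowest. The log2 difference was 0.59 ± 0.27 (SE, n = 3 per group; limma adjusted p = 0.725, blocked 0.321). Cdh5, or VE-cadherin, the main adhesion protein of endothelial junctions, was at 1.81, 1.64 and 1.31 FPKM in null-labelled retinas, against 1.55, 1.41 and 0.494 FPKM in controls. Only control 3 stood clear of the rest, and the difference was 0.40 ± 0.29. Esam, another junctional adhesion molecule, was at 2.63, 2.35 and 1.73 FPKM in null-labelled retinas, against 3.26, 1.96 and 0.809 FPKM in controls. Controls 1 and 3 held its highest and lowest values, and without control 3 the log2 difference turned to -0.17 from 0.24. Without both libraries numbered 3 it was -0.026.

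Emcn was at 0.761, 0.775 and 1.04 FPKM in null-labelled retinas, against 0.738, 0.564 and 0.301 FPKM in controls. The groups did not overlap, although null-labelled 1 exceeded control 1 by a narrow margin (log2 difference 0.41 ± 0.22, adjusted p = 0.749). Cd34 was at 4.08, 3.91 and 2.97 FPKM in null-labelled retinas, against 3.73, 2.74 and 1.35 FPKM in controls, and control 1 lay within the range of the null-labelled retinas. Its log2 difference was 0.49 ± 0.30 with all libraries, 0.15 without control 3 and 0.28 without both libraries numbered 3. Robo4, an endothelial receptor of the roundabout family, was at 0.493, 0.544 and 0.328 FPKM in null-labelled retinas, against 0.394, 0.311 and 0.226 FPKM in controls, and was too low to be tested.

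Among the receptors, Tie1 was at 1.48, 1.31 and 0.928 FPKM in null-labelled retinas, against 1.38, 0.840 and 0.603 FPKM in controls. Tek, which encodes Tie2, was at 1.01, 0.758 and 0.426 FPKM in null-labelled retinas, against 0.752, 0.578 and 0.182 FPKM in controls. In both groups both receptor genes were highest in the library numbered 1 and lowest in the library numbered 3, and the groups overlapped. Their log2 differences were 0.29 ± 0.24 for Tie1 and 0.31 ± 0.29 for Tek. Eng, or endoglin, a co-receptor for BMP9 and TGF-beta, was at 1.59, 1.51 and 1.22 FPKM in null-labelled retinas, against 1.53, 1.46 and 0.988 FPKM in controls. Libraries numbered 1 and 2 were nearly level for Eng, and the difference was 0.094 ± 0.18. Ramp2, the partner that makes the calcitonin-like receptor respond to adrenomedullin, was at 4.76, 5.15 and 3.31 FPKM in null-labelled retinas, against 6.14, 4.67 and 2.34 FPKM in controls. The controls spread across the whole range of the null-labelled retinas and beyond it, and the difference was 0.072 ± 0.31.

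The secreted proteins behaved differently from each other. Egfl7, an endothelial matrix protein, was at 9.99, 11.9 and 13.4 FPKM in null-labelled retinas, against 9.55, 11.2 and 11.6 FPKM in controls. It was the only identity gene that was not lowest in control 3, with its highest value in each group in the library numbered 3. Its log2 difference was 0.11 ± 0.13, and reads of Agpat2, which the annotation places on the opposite strand over it, cannot be told apart from its own. Vwf, von Willebrand factor, was at 1.17, 1.97 and 0.519 FPKM in null-labelled retinas, against 3.08, 0.695 and 0.421 FPKM in controls. Control 1 alone held more than 2 FPKM of Vwf, and the 95% interval of its difference ran from -1.22 to 1.28.

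The largest fitted difference of the 24 tested members was that of an endothelial transcription factor. Sox17 lies at chr1:4490931-4497354 in GENCODE M21 on GRCm38 and was at 0.911, 1.35 and 1.23 FPKM in null-labelled retinas, against 0.864, 0.530 and 0.175 FPKM in controls. The groups did not overlap, but null-labelled 1 and control 1 were close. The mean was 1.16 ± 0.23 FPKM in null-labelled retinas and 0.523 ± 0.34 FPKM in controls (SD, n = 3 each), a ratio of 2.22, and the log2 difference was 0.75 ± 0.28 (limma adjusted p = 0.695, blocked 0.353). Without control 3 it was 0.48, and without both libraries numbered 3 it was 0.44. Sox17 is also among the genes that the study picked out from these libraries, so its membership is not independent of them. Ets1, at chr9:32636221-32757820, was at 2.06, 1.78 and 1.79 FPKM in null-labelled retinas, against 1.72, 1.28 and 0.699 FPKM in controls. Its groups did not overlap either, with a difference of 0.50 ± 0.24 (adjusted p = 0.732). The difference was 0.25 without control 3 and 0.28 without both libraries numbered 3.

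The related factors gave no such separation. Sox18 was at 1.79, 1.58 and 0.712 FPKM in null-labelled retinas, against 2.52, 1.36 and 0.667 FPKM in controls. Both libraries numbered 3 were low to nearly the same extent, and the difference was -0.059 ± 0.38. Erg was at 0.332, 0.390 and 0.356 FPKM in null-labelled retinas, against 0.425, 0.265 and 0.119 FPKM in controls, with control 1 the highest and control 3 the lowest. It was too low to be tested.

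Among tip cell and sprouting genes, Angpt2, the ligand that opposes angiopoietin-1 at Tie2, was the most abundant. It was at 4.97, 3.41 and 3.35 FPKM in null-labelled retinas, against 3.08, 3.94 and 2.90 FPKM in controls. Null-labelled 1 was the highest library and the other 5 overlapped (log2 difference 0.20 ± 0.18). Apln, the peptide apelin of tip cells, was at 1.07, 1.25 and 1.98 FPKM in null-labelled retinas, against 1.42, 1.45 and 0.798 FPKM in controls. The library numbered 3 was thus the highest of the null-labelled retinas and the lowest of the controls, and without both libraries numbered 3 the log2 difference was -0.22, against 0.17 with all 6. Aplnr, the apelin receptor, was at 2.03, 1.49 and 1.38 FPKM in null-labelled retinas, against 1.52, 1.13 and 0.416 FPKM in controls, a difference of 0.55 ± 0.30 (adjusted p = 0.749). It was higher in the null-labelled library for each of the 3 numbers, although the groups overlapped through control 1.

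Pdgfb, the chain of PDGF-B that recruits pericytes, was at 1.17, 1.40 and 0.948 FPKM in null-labelled retinas, against 1.15, 1.45 and 0.782 FPKM in controls. The 2 groups tracked each other number by number, and the difference was 0.051 ± 0.21. Esm1, or endocan, a tip cell proteoglycan, was at 0.0870, 0.148 and 0.214 FPKM in null-labelled retinas, against 0.0416 and 0.161 FPKM in controls 1 and 2, and was listed at 0 in control 3. At these levels it was not tested.

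The barrier genes split by whether they were low in control 3. Mfsd2a, at chr4:122946850-122961188, was at 2.60, 2.31 and 2.49 FPKM in null-labelled retinas, against 1.87, 1.42 and 1.94 FPKM in controls. The groups did not overlap and control 3 was the highest control. The mean was 2.47 ± 0.15 FPKM in null-labelled retinas and 1.74 ± 0.28 FPKM in controls (SD, n = 3 each), a ratio of 1.42, and the log2 difference was 0.41 ± 0.15 (limma adjusted p = 0.693, blocked 0.354). The difference did not shrink without control 3, being 0.48 without it and 0.47 without both libraries numbered 3, and it ranged between 0.30 and 0.48 as each library was left out. It remained short of the threshold in each of these fits.

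Cldn5, the claudin of endothelial tight junctions, was at 11.8, 10.1 and 9.93 FPKM in null-labelled retinas, against 13.1, 7.61 and 7.21 FPKM in controls. Control 1 was the highest library and the other controls the lowest, with a difference of 0.23 ± 0.22. Plvap, which builds the diaphragms of leaky vessels and is low where a barrier has formed, was at 0.934, 0.983 and 1.45 FPKM in null-labelled retinas, against 1.31, 1.02 and 1.61 FPKM in controls. In both groups the library numbered 3 held the most Plvap, the reverse of Cldn5, and the difference was -0.16 ± 0.20. Gtpbp3 lies on the opposite strand over Plvap, and the counting is not stated to use strand.

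The remaining barrier genes had means under 0.5 FPKM and were not tested. Ocln, the tight junction protein occludin, was at 0.386, 0.436 and 0.457 FPKM in null-labelled retinas, against 0.403, 0.217 and 0.234 FPKM in controls. Abcb1a, the efflux pump P-glycoprotein, was at 0.525, 0.499 and 0.290 FPKM in null-labelled retinas, against 0.496, 0.428 and 0.181 FPKM in controls. Slco1c1, a transporter of thyroid hormone, was at 0.362, 0.228 and 0.111 FPKM in null-labelled retinas, against 0.300, 0.235 and 0.106 FPKM in controls. For each of these genes the groups overlapped. Slco1a4, an organic anion transporter, was the single member with all null-labelled libraries below all controls, at 0.0355, 0.0943 and 0.0793 FPKM in null-labelled retinas, against 0.133, 0.174 and 0.142 FPKM in controls, levels too low for the test.

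Among mural genes, Rgs5 was by far the most abundant, at 11.7, 11.96 and 8.18 FPKM in null-labelled retinas, against 11.8, 9.65 and 3.75 FPKM in controls. Control 3 stood alone at the bottom and the other 5 libraries overlapped. The log2 difference was 0.44 ± 0.38 with all libraries, -0.026 without control 3 and 0.14 without both libraries numbered 3. Pdgfrb, the receptor through which pericytes are recruited, was at 0.733, 0.852 and 0.597 FPKM in null-labelled retinas, against 0.943, 0.638 and 0.671 FPKM in controls, a difference of -0.024 ± 0.18. Its highest library was control 1 and its lowest null-labelled 3. Angpt1, or angiopoietin-1, was at 0.640, 0.542 and 1.09 FPKM in null-labelled retinas, against 0.628, 1.07 and 1.73 FPKM in controls, with the most in control 3. Its difference was -0.35 ± 0.29, the lowest of the 24 tested members, with an adjusted p of 0.825.

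The contractile and proteoglycan markers were low. Cspg4, the NG2 proteoglycan of pericytes, was at 0.303, 0.273 and 0.123 FPKM in null-labelled retinas, against 0.273, 0.149 and 0.0862 FPKM in controls. Des, the intermediate filament desmin, was at 0.341, 0.127 and 0.140 FPKM in null-labelled retinas, against 0.376, 0.410 and 0.0810 FPKM in controls. Acta2, smooth muscle actin, was at 0.363, 0.598 and 0.717 FPKM in null-labelled retinas, against 0.411, 0.464 and 0.370 FPKM in controls. The groups overlapped for all 3, and none was tested.

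**Figure D3:**
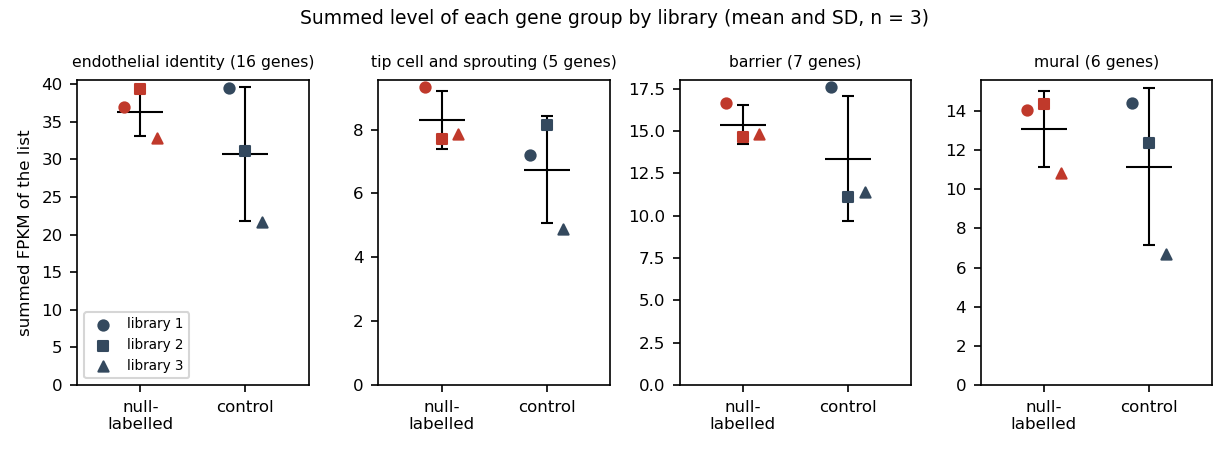
Summed FPKM of the 16 endothelial identity, 5 tip cell, 7 barrier and 6 mural genes in each library, with the group mean and SD (n = 3). The null-labelled means are higher in each panel, and the controls spread further than the null-labelled retinas.

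The sums over each group showed the same spread. The 16 endothelial identity genes summed to 37.0, 39.3 and 32.8 FPKM in null-labelled retinas 1 to 3, against 39.4, 31.1 and 21.7 FPKM in controls 1 to 3. The tip cell genes summed to 9.33, 7.70 and 7.87 FPKM in null-labelled retinas, against 7.22, 8.13 and 4.90 FPKM in controls. Control 1 stood level with null-labelled 2 for endothelial genes, and control 2 lay within the null-labelled range for tip cell genes. The barrier genes, of which Cldn5 was the largest part, summed to 16.7, 14.6 and 14.8 FPKM in null-labelled retinas, against 17.6, 11.1 and 11.4 FPKM in controls. The mural genes, with Rgs5 the largest part, summed to 14.0, 14.4 and 10.9 FPKM in null-labelled retinas, against 14.4, 12.4 and 6.68 FPKM in controls. The ratio of the mean sums, null-labelled over control, lay between 1.15 and 1.23 for the 4 groups and between 1.06 and 1.11 when both libraries numbered 3 were left out.

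Seen by library number, the genes separated most in the retinas numbered 3. The null-labelled library exceeded the control of the same number for 20 of the 34 members at number 1, 25 at number 2 and 30 at number 3. Among the 24 tested members it did so for 15, 19 and 21 at numbers 1 to 3. Of all 13175 tested rows it did so for 6199, 6101 and 7742 (58.8% at number 3). The median log2 difference of the 14 tested endothelial identity genes was 0.055 at number 1, 0.24 at number 2 and 0.61 at number 3, while that of all rows was -0.018, -0.017 and 0.053. Mfsd2a had a difference of 0.39 at number 1, 0.55 at number 2 and 0.30 at number 3. Aplnr, with 0.32, 0.29 and 1.03, and Tek, with 0.27, 0.22 and 0.44, were likewise above 0 at each number. The same held for Pecam1, Cdh5, Tie1, Emcn, Eng, Ets1, Sox17, Egfl7 and Cd34, in part by narrow margins (0.027 for Emcn at number 1). The share of all rows above 0 at each number was not computed.

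**Figure D4:**
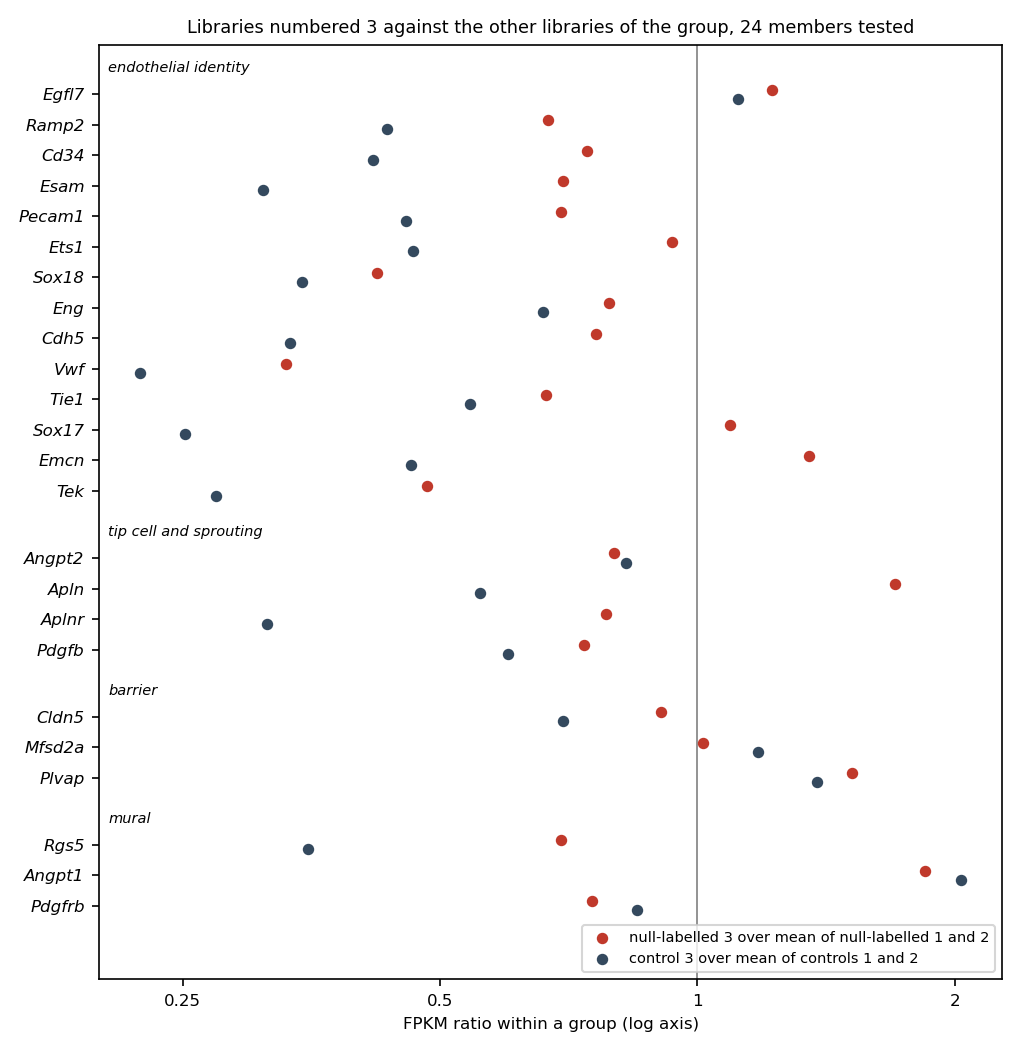
FPKM in the library numbered 3 divided by the mean of that group's other 2 libraries (log axis), for the 24 tested members, null-labelled retinas above and controls below for each gene. Most endothelial genes lie left of 1 in both groups and further left in controls, while Egfl7, Mfsd2a, Plvap and Angpt1 lie right of 1 in both.

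Both retinas numbered 3 held less of most of the 24 tested members than the other retinas of their group, and the gap was wider in controls. Null-labelled 3 was below both other null-labelled retinas for 16 of the 24 tested members, against 34.9% of all rows. Control 3 was below both other controls for 19 of the 24, against 43.6% of all rows, and was the lowest of all 6 libraries for the same number, 19 of 24, against 28.3% of all rows. The median ratio of library 3 to the mean of libraries 1 and 2 was 0.771 in null-labelled retinas and 0.464 in controls over the 24 members, beside 1.02 in null-labelled retinas and 0.973 in controls over all rows. In control 3 the lowest ratio of the tested members was that of Vwf, at 0.223 of the mean of controls 1 and 2. Sox17 followed at 0.251 and Tek at 0.273. The ratio of Vwf rested on control 1, at 3.08 FPKM, since control 2 was at 0.695 FPKM and control 3 at 0.421 FPKM. In null-labelled 3 the same ratio was 0.331 for Vwf, 1.09 for Sox17 and 0.482 for Tek. Whether the retinas numbered 3 differed in age, dissection or processing from the others was not tested.

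Ratios of 2 genes within a library set vessel genes against each other. The 7 ratios computed were chosen after the values of the genes were seen and carry no test. The ratio of Pdgfrb to Pecam1 was 0.347, 0.352 and 0.380 in null-labelled retinas, against 0.519, 0.533 and 0.976 in controls. The groups did not overlap, and the null-labelled retinas lay close together. The ratio of Rgs5, the more abundant mural gene, to Pecam1 was 5.52, 4.94 and 5.21 in null-labelled retinas, against 6.48, 8.07 and 5.46 in controls, a narrower gap, with null-labelled 1 above control 3. The ratio of Angpt2 to Angpt1 was 7.76, 6.29 and 3.07 in null-labelled retinas, against 4.91, 3.69 and 1.68 in controls. It was higher in the null-labelled library at each number, and lowest in each group at number 3. The ratio of Cldn5 to Plvap was 12.7, 10.3 and 6.84 in null-labelled retinas, against 10.0, 7.44 and 4.48 in controls, with the same order of the numbers. The ratio of Mfsd2a to Pecam1 was 1.23, 0.955 and 1.59 in null-labelled retinas, against 1.03, 1.18 and 2.82 in controls, and overlapped. Over whole groups, the ratio of the mural sum to the endothelial sum without Egfl7 was 0.520, 0.523 and 0.558 in null-labelled retinas, against 0.482, 0.623 and 0.664 in controls. The ratio of the tip cell sum to the same endothelial sum was 0.346, 0.281 and 0.405 in null-labelled retinas, against 0.241, 0.409 and 0.486 in controls. Both of these broader ratios overlapped between the groups, unlike that of Pdgfrb to Pecam1.

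Other genes of the same cells, not among the 34, were read from lists chosen in the same way, and none passed the test in either direction in either fit. Of 11 tested endothelial genes 10 had a log2 difference above 0, with a median of 0.29. Kdr, the main VEGF receptor, which neural progenitors of the retina also express, was at 56.8, 50.8 and 45.5 FPKM in null-labelled retinas, against 40.2, 38.8 and 42.3 FPKM in controls. The groups did not overlap (log2 difference 0.33 ± 0.10, adjusted p = 0.661), and its level was far above that of any endothelial identity gene. The difference was above 0 for 8 of 10 further tip cell and Notch genes, 9 of 11 further barrier genes and 4 of 8 further mural genes, with medians of 0.068, 0.16 and 0.014. Slc16a1, a lactate transporter found at the barrier, was at 4.49, 4.70 and 4.43 FPKM in null-labelled retinas, against 4.20, 3.49 and 3.76 FPKM in controls, without overlap (adjusted p = 0.749). Foxf2, a transcription factor of brain pericytes, was at 1.12, 0.846 and 0.537 FPKM in null-labelled retinas, against 0.721, 0.504 and 0.153 FPKM in controls, again lowest in control 3. The mature smooth muscle gene Myh11 had a mean of 0.0356 FPKM over the 6 libraries and Tbx18, a mural transcription factor, of 0.0095 FPKM.

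The tested ones among these further genes did not share the low values of the members in null-labelled 3. Of the 40 tested, null-labelled 3 was below both other null-labelled retinas for 14, a share close to the 34.9% of all rows. Over all 58 further genes with a row, those too low for the test included, it was so for 29. Over all 34 members it was so for 20. Control 3 was below both other controls for 21 of the 40 and the lowest of 6 libraries for 20. Over the tested genes, the median ratio of null-labelled 3 to null-labelled 1 and 2 was 1.02 for endothelial and 1.19 for tip cell and Notch genes. It was 1.07 for barrier and 0.914 for mural genes. In controls the same medians were 0.634, 0.934, 0.973 and 0.826. The sums of the further tip cell and Notch, barrier and mural genes were highest in the library numbered 3 of each group. Whether the further genes were read from vessels was not tested, and Cxcr4 and Slc2a1, which weigh heavily in these sums, are also expressed by retinal neurons or glia.

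Of 10 genes induced by hypoxia, 2 had a log2 difference above 0 and 8 below, with a median of -0.030. Vegfa, the ligand of Kdr, was at 84.1, 121 and 125 FPKM in null-labelled retinas, against 132, 125 and 175 FPKM in controls. Null-labelled 3 and control 2 were nearly equal, with all null-labelled libraries below all controls by that margin (log2 difference -0.39 ± 0.19, adjusted p = 0.737). Car9, a carbonic anhydrase induced by hypoxia, was at 0.0882, 0.151 and 0.186 FPKM in null-labelled retinas, against 0.868, 1.26 and 1.03 FPKM in controls. The groups were far apart, but the test was not passed (difference -1.27 ± 0.19, adjusted p = 0.327, blocked 0.0754), and Car9 too is among the genes the study picked out from these libraries.

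Markers of other cells moved in part with the vessel genes. All 8 tested microglia and macrophage genes had a log2 difference above 0, with a median of 0.37. Their 11 listed genes summed to 32.2, 30.8 and 44.0 FPKM in null-labelled retinas, against 23.4, 26.5 and 30.3 FPKM in controls, so that control 3 held the most of the controls. Csf1r, the receptor on which microglia depend, was at 2.85, 2.89 and 2.43 FPKM in null-labelled retinas, against 2.03, 1.85 and 1.69 FPKM in controls, without overlap (log2 difference 0.45 ± 0.14, adjusted p = 0.661). The perivascular macrophage marker Mrc1 had a mean of 0.0187 FPKM. The 5 tested astrocyte genes were also all above 0, and the 6 listed genes summed to 76.8, 69.2 and 63.5 FPKM in null-labelled retinas, against 61.5, 56.0 and 57.2 FPKM in controls. Most of that sum was Slc1a3, a glutamate transporter that is also abundant in Muller glia, at 65.6, 58.7 and 52.0 FPKM in null-labelled retinas, against 53.5, 45.0 and 49.8 FPKM in controls. Gfap, the astrocyte filament, was at 6.66, 5.12 and 5.33 FPKM in null-labelled retinas, against 4.64, 5.85 and 2.10 FPKM in controls, and was the single astrocyte gene of 6 with its lowest value in control 3. Pax2, a transcription factor of retinal astrocytes, was at 0.998, 1.29 and 1.83 FPKM in null-labelled retinas, against 0.861, 0.835 and 1.72 FPKM in controls, highest in each group in the library numbered 3.

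Fibroblast and meningeal genes, of which 3 of 8 were tested and all 3 were above 0, summed to 14.2, 14.95 and 14.2 FPKM in null-labelled retinas, against 11.1, 9.83 and 10.2 FPKM in controls. Most of that sum was Pdgfra, which retinal astrocytes also express, and Lum was listed at 0 in all but control 3. Col1a2, a collagen chain of fibroblasts, was at 2.80, 2.33 and 0.593 FPKM in null-labelled retinas, against 0.822, 0.342 and 0.189 FPKM in controls. It was higher in the null-labelled library at each number, with a fitted difference larger than that of any tested vessel member (log2 difference 1.25 ± 0.44, limma adjusted p = 0.689, blocked 0.143). The list had no common direction, since 4 of its 8 genes had a higher and 4 a lower mean in null-labelled retinas. Col1a1, too low for the test, had a mean of 0.118 FPKM in null-labelled retinas and 0.120 FPKM in controls. Erythrocyte genes summed to 78.0, 63.3 and 117 FPKM in null-labelled retinas, against 68.3, 59.0 and 106 FPKM in controls, highest in each group in the library numbered 3. Lens genes summed to 5.79, 23.5 and 26.3 FPKM in null-labelled retinas, against 6.76, 6.53 and 8.55 FPKM in controls. Pigment epithelium genes had no common direction, with 3 of 6 tested above 0, a sum of 138, 129 and 152 FPKM in null-labelled retinas, against 122, 149 and 137 FPKM in controls. Most of that sum was Rlbp1, which Muller glia also express, and Rpe65, which marks the pigment epithelium, stood at a mean of 0.0443 FPKM. Striated muscle genes summed to 6.81, 7.05 and 11.95 FPKM in null-labelled retinas, against 8.83, 9.62 and 9.95 FPKM in controls, with Myod1 at 0 throughout. The part of these other cells in the values of the vessel genes was not tested.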

How the data were processed

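Each of the 3 null-labelled and 3 control mice gave 1 TruSeq library of total retinal RNA, made after the pigment epithelium was taken off and read as paired ends. The deposited values are FPKM, which the authors obtained by mapping to GRCm38 with TopHat2 and estimating abundance with Cufflinks, per the submitters' processing notes. No source used here gives the versions, the annotation or whether strand was used. Cufflinks shares fragments among overlapping transcripts, so genes with an overlapping or antisense neighbour are uncertain. Besides Egfl7 and Plvap, these include Ramp2, which overlaps Vps25 on the same strand. They also include Eng, Angpt2 and Esm1, with Fpgs, Mcph1 and Gzmk on the opposite strand. Sox17, Ets1, Cdh5, Cd34, Angpt1, Pdgfb, Des and Abcb1a have an annotated antisense neighbour too, in each case a gene with a Gm name. Between 0.946% and 7.83% of low rows (0.001 to 0.2 FPKM) shared a common ratio in a pair of libraries, too few to recover whole reads, so precision rests on the spread between animals.

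Of 21995 rows, 168 had a repeated name, of which the most abundant was used, and 27 a date for a name. The 13175 rows averaging 0.5 FPKM or more were fitted with limma 3.58.1 in R 4.3.3 on log2(FPKM + 0.5), with a trend and genotype alone. The test was two-sided and adjusted by Benjamini-Hochberg over all these rows, and it was tested on simulated data. Log2 differences on this scale understate the change of low genes. No count test was run, as FPKM are not counts.

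The members, lists and tests were chosen with earlier results of these data known. Every member is named; of each further list, up to 3 genes with the smallest p and markers near 0 may be named. Pax2, Rlbp1, Cxcr4, Slc2a1, Ndufa4l2, Cox4i2, Col1a1 and the bipolar genes were named after their values were seen. Within groups, the deviations of same-numbered libraries correlated at 0.39, 0.26 and 0.67, and the replicate numbers of the labels were taken as pairs. However, null-labelled 2 correlated better with control 1 (0.38), so that numbers 1 and 2 are not told apart. Deviations were taken from each group's mean, so libraries numbered 3 that stand apart in both groups make numbers 1 and 2 correlate across groups. The values at numbers 1 and 2 therefore cannot show pairing, and the block rests there on the labels alone. The alternatives were other pseudocounts (0.1, 1) and filters (none, 2 FPKM), a common 75th percentile or total, quantile normalization, a fit without the trend, array weights, a replicate block and each library left out. Leaving out both libraries numbered 3 was added after seeing the data. Positions came from GENCODE M21.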

Additional observations from a re-analysis of the deposited data

How the results depend on the processing

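No member passed the threshold in any of the 17 alternatives, with a smallest adjusted p between 0.282 (array weights) and 0.99958 (without null-labelled replicate 1). Over all rows 2 passed, against 12 with the replicate block, 5 without both libraries numbered 3, and 0 to 3 as each library was left out, with 0 without null-labelled replicate 2 and 1 without control replicate 2. The block changed no call of a member. The median log2 difference of the 24 members lay between 0.062 (without control 3) and 0.49 (without control 1), and that of the endothelial identity genes between 0.093 and 0.57 for the same libraries. The barrier median ranged from 0.077 to 0.46, the highest without control 1, and the mural median became 0.44 with a filter at a mean of 2 FPKM, where Rgs5 alone was left. No rescaling moved the median of all rows by more than 0.038.

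For 9 members the difference changed sign in some setting, including Rgs5 (0.44 with all libraries) and Esam (0.24), which were below 0 without control 3; apart from what a setting removes, the cause was not tested. Vwf became -0.0026 with a pseudocount of 1, -0.016 with quantile normalization and -0.027 without both libraries numbered 3. Pdgfb became -0.026 with quantile normalization, -0.026 with array weights and -0.010 without both numbered 3. Pdgfrb became 0.0022 with a common total, 0.020 with array weights and 0.011 without both numbered 3. Ramp2 became -0.016 and Apln -0.10 with array weights, and without both numbered 3 they were -0.10 and -0.22, with Esam at -0.026. As each library was left out, the ranges that crossed 0 were -0.36 to 0.62 for Vwf, -0.28 to 0.34 for Ramp2, -0.11 to 0.19 for Pdgfb, -0.40 to 0.29 for Sox18, -0.028 to 0.30 for Apln, -0.096 to 0.084 for Pdgfrb, -0.17 to 0.60 for Esam, -0.048 to 0.18 for Eng and -0.026 to 0.74 for Rgs5.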
